A study of Mus musculus with 22 samples.

Results

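GFP+ nuclei of the lumbar spinal dorsal horn were set against the GFP- nuclei of the same tissue in mice at postnatal day 7 (P7). The comparison rested on 8 of the 22 libraries of the series, 4 of each population, chosen by their population and age, and it was described over all genes. The GFP+ group held nuclei that the labels call pDyn-lineage, from pDyn-Sun1-GFP mice aged 7 days, and the GFP- group held the non-pDyn nuclei, of no identified type, from the same strain and age. In this strain, per the labels, a nuclear envelope protein fused to GFP is under control of the promoter of the prodynorphin gene. Flow sorting took 5000 nuclei of each population from each animal, and the labels list 2 females and 2 males at P7. The labels do not say whether GFP follows past or only present use of the promoter. The GFP- group is a mixture of the other neurons with glia and other cells, and only RNA of nuclei was measured. The other groups used here are GFP+ and GFP- nuclei of the same strain at P21 (3 libraries each) and P80 (4 libraries each).

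Prodynorphin is cut into dynorphins, opioid peptides that act mainly on the kappa opioid receptor. In the dorsal horn of the mouse, dynorphin is made by a set of inhibitory interneurons, many of which also contain galanin, and by fewer excitatory neurons. Inhibitory interneurons release GABA, glycine or both, excitatory ones release glutamate, and classes of each are told apart by their peptides and transcription factors.

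Values are normalized read counts, that is, counts of reads per gene divided by 1 size factor per library. They are given for the GFP+ libraries in the order ES17, ES19, ES21 and ES23, and for the GFP- libraries in the order ES18, ES20, ES22 and ES24. Between 4495852 and 6827587 reads per P7 library were assigned to genes, and 20167 to 20801 genes had a read, and 1 read was worth between 0.781 and 1.226. Differences are GFP+ minus GFP- on the scale of log2(value + 1), with their standard error and n = 4 per population. Each comes with the Benjamini-Hochberg adjusted p of limma's two-sided test over all tested genes. The fit took the spread of a gene from all 22 libraries in 6 groups, so that a standard error also reflects the spread at P21 and P80. The log2(value + 1) scale understates the difference of genes near 0, and genes with an adjusted p under 0.05 are said to have risen or fallen.

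Of 18614 genes tested, 3203 differed between GFP+ and GFP- nuclei, or 17.2%. In GFP+ nuclei 1315 genes (7.06% of those tested) rose and 1888 (10.1%) fell. The fall was more often large: 490 genes rose and 1240 fell by at least 2-fold, and 137 rose and 420 fell by at least 4-fold. At 8-fold the order turned, with 35 genes that rose and 21 that fell. The 4 GFP+ values lay wholly above the 4 GFP- values in 2377 genes (12.8%) and wholly below them in 2931 (15.7%). The median difference of all tested genes was 0.01. Counts of gene lists below are to be read against the shares given here for all tested genes. With the 8 P7 libraries fitted alone, 2300 genes rose and 2854 fell, and without the GFP- library ES20 845 rose and 1403 fell. The authors' deposited table gives 4569 genes an adjusted p under 0.05 at P7, and 2972 genes were called in both, all with the same sign. These shared genes were 92.8% of the genes called here and 65.0% of those in the authors' deposited table.

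**Figure D1:**
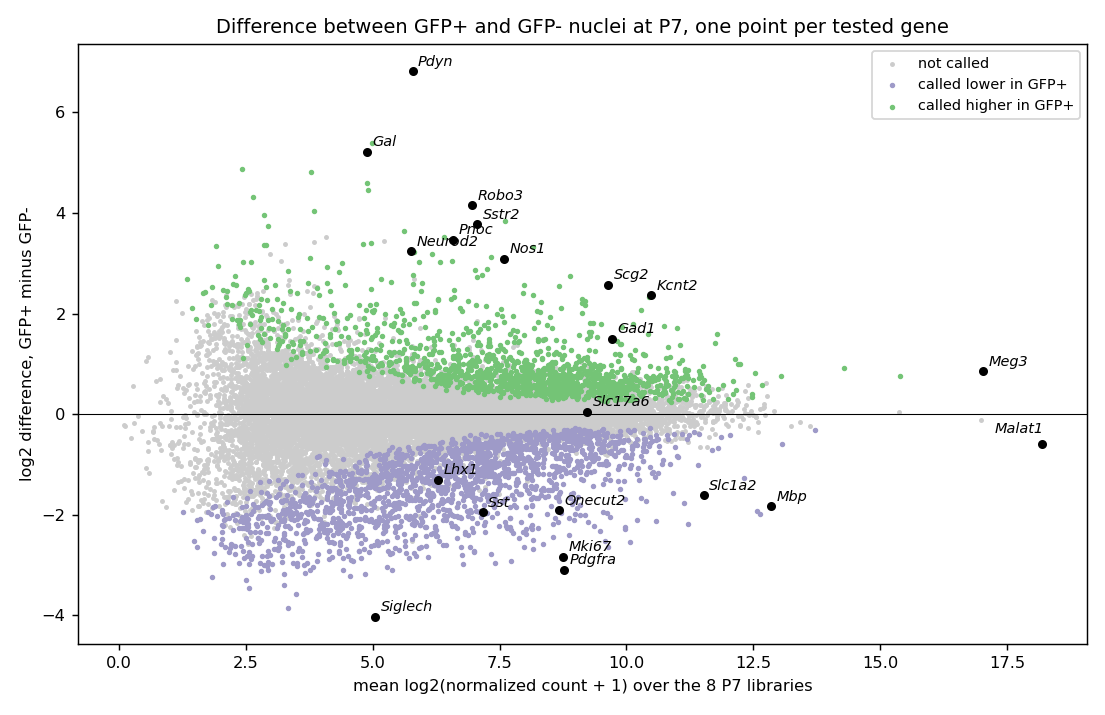
Difference between GFP+ and GFP- nuclei at P7 (vertical axis, log2 scale, GFP+ minus GFP-) against the mean log2(normalized count + 1) over the 8 P7 libraries (horizontal axis), with 1 point per tested gene. Green points are the 1315 genes that rose, violet points the 1888 that fell and grey points those not called. Pdyn and Gal stand highest among the labelled genes, at 6.82 and 5.22, and Siglech lowest, at -4.02.

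The labelled tissue and cell types were checked against marker genes, summed per library. The sum of 3 Hox genes of the lumbar level (Hoxc10, Hoxd9 and Hoxc9) was 538 to 601 in GFP+ and 548 to 648 in GFP- libraries. The sum of 5 genes of all neurons was 6542 to 7643 in GFP+ and 3907 to 4670 in GFP- libraries, and that of 5 genes of inhibitory neurons was 3654 to 4070 in GFP+ and 1409 to 1629 in GFP- libraries. Sums of 3 excitatory neuron genes overlapped, at 683 to 951 in GFP+ and 685 to 1014 in GFP- libraries. Sums of glial and vessel genes were lower in every GFP+ library than in any GFP- one. In GFP+ against GFP- libraries they were 356 to 553 against 2582 to 4140 for oligodendrocyte precursors, 6505 to 8397 against 22804 to 33498 for oligodendrocytes, 2340 to 2932 against 7243 to 10434 for astrocytes, 66.7 to 141 against 412 to 632 for microglia and 59.1 to 89.7 against 338 to 513 for vessels. In none of these lists was a gene at 0 in all GFP+ libraries. The motor neuron gene Chat was at 11.4 to 21.4 in GFP+ and 0 to 11.3 in GFP- libraries. The GFP- library ES20 stood apart from the other GFP- libraries. It had the lowest mean log2 level of the pan-neuronal list (9.26, others 9.36 to 9.46) and the highest of oligodendrocyte precursor genes (9.98, others 9.40 to 9.48). The GFP+ library ES19 shared 1 trait with it: meningeal fibroblast genes were lowest in ES19 (3.25) and ES20 (3.44), against 4.43 to 6.24 in the others. The neuron and glia content moves with every comparison below, and its part in the results was not tested. In bulk samples fewer cells of a type and less RNA per cell cannot be told apart. Where neuronal gene families are counted, the counts are also given after each library was centred on its mean over the pan-neuronal list, a scaling that moved the median of all genes by -0.55.

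**Figure D2:**
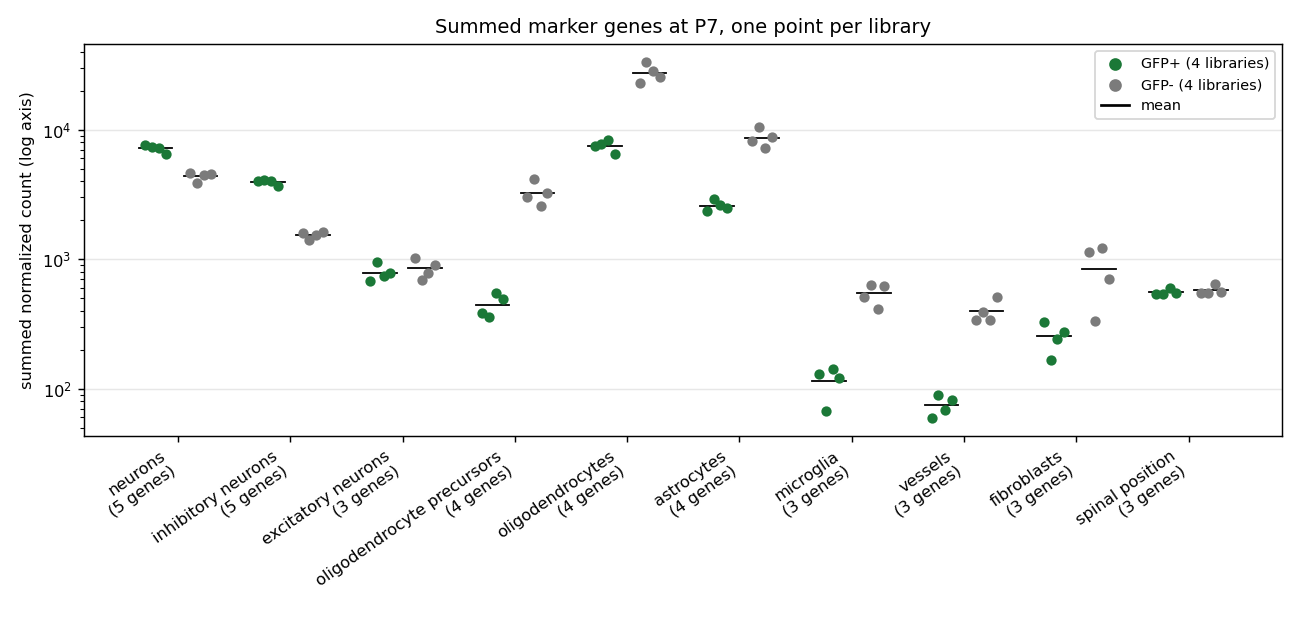
Summed normalized counts of marker genes (vertical axis, log scale) for 10 cell types or positions, with 1 point per P7 library, GFP+ in green left of GFP- in grey, and a bar at the mean. The GFP+ sums of inhibitory neuron genes (3654 to 4070) lie above all GFP- sums, those of excitatory neurons and Hox genes overlap, and those of glia and vessels lie below.

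Promoters of 4 genes with high differences are shown, since the sort rests on the Pdyn promoter and Gal, Sstr2 and Robo3 were among the genes that moved most with it. The sequences run from 250 bases before to 50 bases after the gene start, 5′ to 3′ on the gene's strand, from RefSeq (build GRCm38.p6). They are Pdyn at chr2:129699889-129700188 on the minus strand, the upstream of 2 listed starts, Gal at chr19:3414495-3414794 on the minus strand, Sstr2 at chr11:113619077-113619376 on the plus strand and Robo3 at chr9:37433126-37433425 on the minus strand. Capitals mark matches, on either strand, to the cyclic AMP response element TGACGTCA or to its part TGACG.
Pdyn: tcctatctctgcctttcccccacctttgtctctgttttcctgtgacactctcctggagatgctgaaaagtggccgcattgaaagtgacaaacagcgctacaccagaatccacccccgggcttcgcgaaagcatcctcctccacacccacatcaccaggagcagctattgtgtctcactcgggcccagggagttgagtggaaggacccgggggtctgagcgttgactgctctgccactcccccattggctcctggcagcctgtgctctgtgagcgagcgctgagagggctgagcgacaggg
Gal: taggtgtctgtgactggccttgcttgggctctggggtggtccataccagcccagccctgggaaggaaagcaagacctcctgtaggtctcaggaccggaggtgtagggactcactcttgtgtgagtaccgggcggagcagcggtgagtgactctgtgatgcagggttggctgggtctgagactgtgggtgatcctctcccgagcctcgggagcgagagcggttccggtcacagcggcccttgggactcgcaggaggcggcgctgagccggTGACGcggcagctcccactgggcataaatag
Sstr2: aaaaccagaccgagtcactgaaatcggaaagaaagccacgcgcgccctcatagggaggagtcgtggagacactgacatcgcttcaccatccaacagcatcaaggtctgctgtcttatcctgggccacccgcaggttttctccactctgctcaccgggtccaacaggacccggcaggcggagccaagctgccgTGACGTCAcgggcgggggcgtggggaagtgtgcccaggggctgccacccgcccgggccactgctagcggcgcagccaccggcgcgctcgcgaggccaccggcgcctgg
Robo3: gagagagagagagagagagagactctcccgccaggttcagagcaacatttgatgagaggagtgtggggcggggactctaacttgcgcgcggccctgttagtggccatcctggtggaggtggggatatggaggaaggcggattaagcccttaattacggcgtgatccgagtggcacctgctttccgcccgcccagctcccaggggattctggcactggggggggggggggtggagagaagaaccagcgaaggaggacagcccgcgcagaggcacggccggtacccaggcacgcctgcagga
TGACGTCA, which holds TGACG on both strands, was found in Sstr2, and TGACG alone in Gal. Neither was found in the windows of Pdyn and Robo3, and CAGCTG, the other motif searched, was found in none of the 4. Of 32851 promoters of the same length, 1.79% held TGACGTCA, 20.8% held TGACG and 16.3% held CAGCTG.

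Opioid precursor genes rose in GFP+ nuclei, and of the receptor genes Oprk1 alone was called. Pdyn, on whose promoter the sort rests, had 592, 663, 522 and 572 in GFP+ libraries, or 521, 805, 426 and 733 reads, against 8.32, 2.42, 6.90 and 1.89 in GFP- libraries, or 9, 3, 7 and 2 reads. Every GFP+ library was far above every GFP- library, with means of 587 ± 58.2 and 4.88 ± 3.21 (SD), a ratio of 120.3 and a difference of 6.82 ± 0.61 (adjusted p = 3.04e-07). That difference was built into the sort. Penk, the enkephalin precursor, had 643, 813, 425 and 637 in GFP+ and 199, 148, 129 and 122 in GFP- libraries, with no overlap and a rise of 2.06 ± 0.22 (adjusted p = 1.6e-06). Pnoc, the precursor of nociceptin, had 336, 310.3, 276 and 362 in GFP+ and 32.4, 29.8, 25.6 and 24.6 in GFP- libraries and rose by 3.47 ± 0.42 (adjusted p = 6.69e-06). The 4 GFP+ values of Pnoc were close together and far above all GFP- values, with a ratio of means of 11.4. Pomc, the precursor of beta-endorphin, stayed near 0, with 3.41, 11.5, 4.90 and 3.12 in GFP+ and 4.62, 1.61, 1.97 and 0.945 in GFP- libraries, and was below the level tested.

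Of 7 opioid genes tested, 4 rose and 0 fell, with a median difference of 1.08 against 0.01 for all genes. After centring on pan-neuronal genes, and also without ES20, 3 rose and 0 fell. Each of these counts includes Pdyn, whose rise was built into the sort. Oprk1, the kappa receptor on which dynorphin acts, had 361, 453, 396 and 318 in GFP+ and 183, 188, 184 and 159 in GFP- libraries, without overlap. It rose by 1.08 ± 0.33 (adjusted p = 0.0283), a call that ended without any 1 of ES17, ES19, ES21, ES18, ES20, ES22 and ES24 (adjusted p between 0.0501 and 0.0779), and the difference was 0.54 (adjusted p = 0.0992) after centring on pan-neuronal genes. The mu receptor gene Oprm1 had 201, 159, 199.8 and 160.1 in GFP+ and 196, 102, 144 and 126 in GFP- libraries, which overlapped, with a difference of 0.37 ± 0.27 (adjusted p = 0.386), or -0.17 (adjusted p = 0.511) after centring. Oprd1, the delta receptor, and Oprl1, the nociceptin receptor, differed by 0.22 ± 0.40 and 0.16 ± 0.24 and were not called, and after centring both signs turned, to -0.32 (adjusted p = 0.388) and -0.39 (adjusted p = 0.062).

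**Figure D3:**
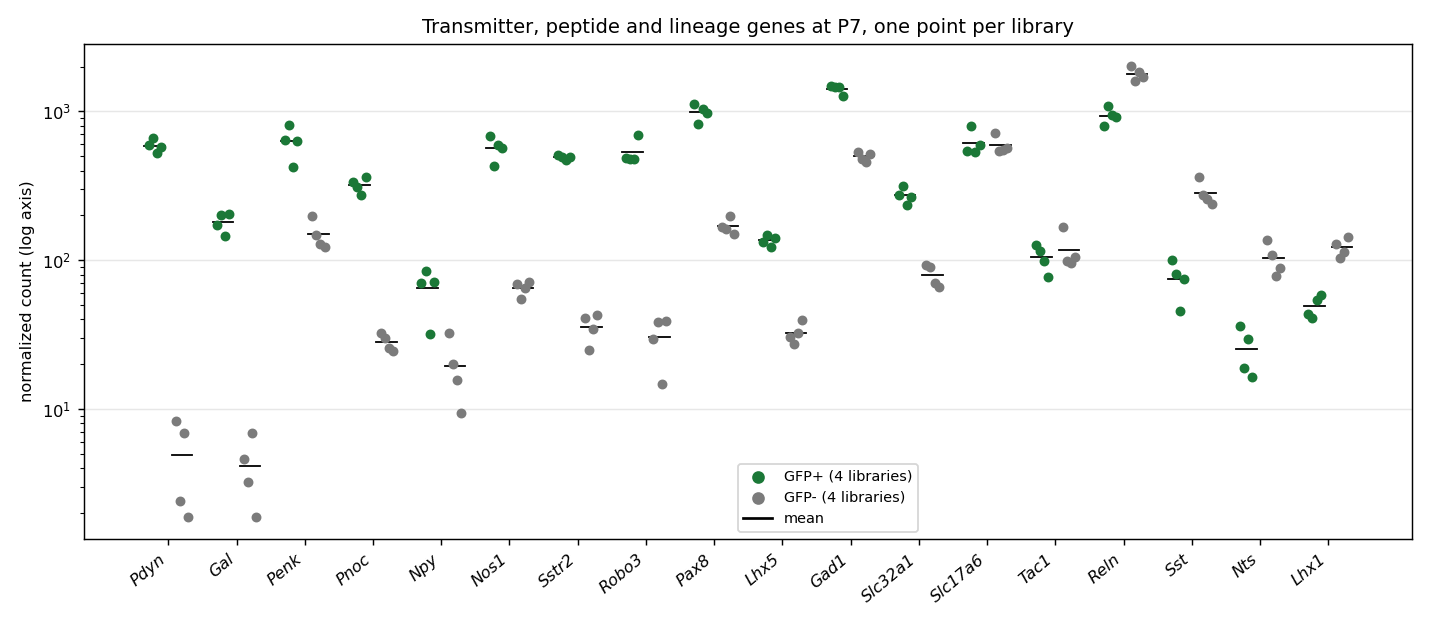
Normalized counts (vertical axis, log scale) of 18 transmitter, peptide and lineage genes at P7, with 1 point per library, GFP+ in green left of GFP- in grey, and a bar at the mean of 4 libraries. Pdyn is at 522 to 663 in GFP+ and 1.89 to 8.32 in GFP- libraries, while Slc17a6 and Tac1 overlap and Sst, Nts and Lhx1 are lower in GFP+ libraries.

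Genes that mark inhibitory dorsal horn neurons rose in GFP+ nuclei, led by galanin. Of 18 genes of inhibitory peptides and classes, 10 rose and 0 fell, with a median of 1.14, and the counts were the same without ES20. Centred on pan-neuronal genes, 8 rose and 1 fell. Gal, the precursor of galanin, had 172, 202, 145 and 205 in GFP+ and 4.62, 3.23, 6.90 and 1.89 in GFP- libraries. The GFP- values were of a few reads, the populations were far apart, and the difference was 5.22 ± 0.46 (adjusted p = 1.42e-07). Nos1, neuronal nitric oxide synthase, had 684, 426, 592 and 569 in GFP+ and 69.3, 54.9, 65.1 and 71.8 in GFP- libraries, with a rise of 3.09 ± 0.28 (adjusted p = 2.14e-07). ES19 was the lowest GFP+ library for Nos1 and still lay above all GFP- libraries. Sstr2, the somatostatin receptor of many superficial inhibitory neurons, had 509, 496, 473 and 492 in GFP+ and 40.7, 25.01, 34.5 and 42.5 in GFP- libraries. Its 4 GFP+ values were nearly equal, and it rose by 3.78 ± 0.22 (adjusted p = 3.04e-10). Rspo3, a secreted Wnt agonist, rose by 3.38 ± 0.50 (adjusted p = 6.49e-05), Ret, the GDNF family receptor, by 1.48 ± 0.21 (adjusted p = 3.79e-05), and Rorb, a nuclear receptor of some dorsal horn inhibitory neurons, by 0.91 ± 0.15 (adjusted p = 0.000183). After centring Rorb was at 0.36 (adjusted p = 0.181), which ended its call.

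Other class markers of dorsal horn neurons gave no firm rise. Npy, neuropeptide Y, had 70.4, 84.8, 31.9 and 71.1 in GFP+ and 32.4, 20.2, 15.8 and 9.45 in GFP- libraries, so that ES21 lay just below ES18. The call of its rise, 1.72 ± 0.50 (adjusted p = 0.0205), ended without any 1 of ES17, ES19, ES23, ES22 and ES24 (adjusted p between 0.0502 and 0.0757) and after centring (adjusted p = 0.0606). Pvalb, parvalbumin, was near 0 in both populations, with 4.54, 0.823, 2.45 and 2.34 in GFP+ and 1.85, 0.807, 6.90 and 1.89 in GFP- libraries and an adjusted p = 0.998. Calb2, calretinin, had 71.6, 113, 60.1 and 92.9 in GFP+ and 110.0, 118, 113 and 103 in GFP- libraries, which overlapped. Calb2 was counted in the inhibitory list above, though it does not mark inhibitory neurons alone. Its difference was -0.43 ± 0.27 (adjusted p = 0.315), or -0.98 (adjusted p = 0.0366) after centring on pan-neuronal genes. Npy1r, the Y1 receptor that marks another set of dorsal horn neurons, differed by -0.01 ± 0.18 (adjusted p = 0.975).

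Genes that make and package GABA rose in GFP+ nuclei, and transporters known from astrocytes fell. Of 8 inhibitory transmitter genes, 4 rose and 2 fell, with a median of 0.78, or 3 and 2 after centring. Gad1, which makes GABA, had 1475, 1449, 1448 and 1272 in GFP+ and 535, 482, 458 and 521 in GFP- libraries, without overlap, and rose by 1.50 ± 0.27 (adjusted p = 0.000509). Gad2, the other GABA synthase, rose by 1.49 ± 0.28 (adjusted p = 0.000675), and Slc32a1, the vesicular transporter of GABA and glycine, by 1.77 ± 0.32 (adjusted p = 0.000524). Neither overlapped between the populations. Slc6a5, the neuronal glycine transporter, had 694, 696, 784 and 629 in GFP+ and 413, 356, 462 and 421 in GFP- libraries. All 4 GFP+ values were above the GFP- ones, yet the difference of 0.76 ± 0.43 was not called (adjusted p = 0.253). With the 8 P7 libraries fitted alone it had an adjusted p = 2.27e-05, and after centring on pan-neuronal genes the difference was 0.22 (adjusted p = 0.539). Slc6a9 and Slc6a11, the glycine and GABA transporters known from astrocytes, fell, with differences of -1.60 ± 0.29 and -1.12 ± 0.23 (adjusted p = 0.000507 and adjusted p = 0.00168), beside the lower astrocyte sums given above.

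Transcription factors of the inhibitory lineage were split. Of 15 tested, 7 rose and 2 fell, with a median of 0.91, and 6 rose and 3 fell after centring on pan-neuronal genes. Pax8 had 1120.1, 826, 1032 and 976 in GFP+ and 166, 161, 197 and 150.2 in GFP- libraries and rose by 2.54 ± 0.37 (adjusted p = 7.69e-05). Its partner of the same family, Pax2, the usual marker of dorsal inhibitory neurons, had 649, 461, 563 and 552 in GFP+ and 199.7, 157, 210.0 and 222 in GFP- libraries. The values of Pax2 did not overlap, but its difference of 1.49 ± 0.54 missed the threshold (adjusted p = 0.0615), while the 8 P7 libraries alone gave an adjusted p = 1.93e-07. Skor1, a corepressor, rose by 3.13 ± 0.27 (adjusted p = 8.92e-08), Prdm8 by 2.61 ± 0.33 (adjusted p = 1.14e-05) and Bhlhe22 by 1.87 ± 0.23 (adjusted p = 6.23e-06).

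The LIM factors Lhx5 and Lhx1, which are made by the same embryonic inhibitory progeny, went opposite ways. Lhx5 had 132, 148, 123 and 141 in GFP+ and 30.5, 27.4, 32.5 and 39.7 in GFP- libraries and rose by 2.04 ± 0.33 (adjusted p = 0.00017). Lhx1 had 43.2, 41.2, 53.9 and 58.6 in GFP+ and 128, 104, 113 and 143 in GFP- libraries and fell (-1.30 ± 0.36, adjusted p = 0.0149). Neither gene overlapped between the populations. Satb1, a chromatin organizer, fell (-0.69 ± 0.14, adjusted p = 0.00104). Lbx1, which marks dorsal horn neurons of both transmitter types during development, had 56.8, 61.7, 53.9 and 55.5 in GFP+ and 63.8, 46.0, 46.3 and 71.8 in GFP- libraries, with a difference of 0.03 ± 0.25 (adjusted p = 0.966), or -0.52 (adjusted p = 0.11) after centring.

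Excitatory genes were lower in part. Of 19 peptide and class genes of excitatory dorsal horn neurons, 9 fell and 1 rose, with a median of -0.69, and the counts were the same without ES20. After centring 10 fell and 1 rose. Sst, somatostatin, had 99.97, 80.7, 45.4 and 74.2 in GFP+ and 364, 275, 259 and 239 in GFP- libraries and fell (-1.94 ± 0.23, adjusted p = 5.28e-06). Nts, neurotensin, had 36.4, 18.9, 29.4 and 16.4 in GFP+ and 138, 108, 77.9 and 88.8 in GFP- libraries and fell (-2.02 ± 0.35, adjusted p = 0.000363). In both genes the highest GFP+ value was below the lowest GFP- value. Cck, cholecystokinin (-1.33, adjusted p = 0.0023), Nmu, neuromedin U (-1.93, adjusted p = 0.00157), and its receptor gene Nmur2 (-1.39, adjusted p = 0.000523) fell too. Reln, the secreted protein reelin, had 797, 1085, 951 and 912 in GFP+ and 2003, 1613, 1852 and 1693 in GFP- libraries and fell (-0.94 ± 0.14, adjusted p = 7.17e-05). Tac2, the neurokinin B precursor, fell (-0.89 ± 0.28, adjusted p = 0.0311), a call that ended without any 1 of ES17, ES21, ES23, ES18, ES22 and ES24 (adjusted p between 0.0608 and 0.0988). Its receptor gene Tacr3 went the other way, with 248, 209.9, 244 and 210.1 in GFP+ and 63.8, 30.7, 43.4 and 30.2 in GFP- libraries and a rise of 2.47 ± 0.19 (adjusted p = 2.82e-08). Tac1, the precursor of substance P, overlapped, with 126, 116, 99.3 and 76.5 in GFP+ and 168, 98.4, 95.6 and 106 in GFP- libraries and an adjusted p = 0.806. Grp, gastrin-releasing peptide, had 18.2, 22.2, 7.35 and 9.37 in GFP+ and 61.0, 39.5, 16.8 and 47.2 in GFP- libraries, a difference of -1.45 ± 0.60 (adjusted p = 0.105) that was called with the 8 P7 libraries alone (adjusted p = 0.0153) and after centring (adjusted p = 0.0226).

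The glutamate transporters gave no single direction. Slc17a6, the vesicular glutamate transporter of most dorsal horn excitatory neurons, had 543, 801, 532 and 595 in GFP+ and 715, 542, 553 and 566 in GFP- libraries. The populations overlapped and differed by 0.05 ± 0.18 (adjusted p = 0.908), and after centring on pan-neuronal genes the difference was -0.50 (adjusted p = 0.0214). Slc17a8, a transporter of fewer dorsal horn neurons, had 42.0, 11.5, 36.8 and 25.8 in GFP+ and 139, 94.4, 124 and 113 in GFP- libraries and fell (-2.11 ± 0.31, adjusted p = 6.5e-05).

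Of 17 transcription factors of the excitatory lineage, 4 rose and 5 fell, with a median of -0.43, against 3 and 8 after centring. Tlx3, a selector of the glutamatergic fate, had 12.5, 18.9, 17.2 and 26.6 in GFP+ and 43.4, 29.8, 58.2 and 81.2 in GFP- libraries and fell (-1.41 ± 0.35, adjusted p = 0.00643). Maf, of deeper excitatory neurons, had 269, 165, 226 and 177 in GFP+ and 489.9, 352, 446 and 484 in GFP- libraries and fell (-1.09 ± 0.16, adjusted p = 5.67e-05). Mafa, its relative, fell to 5.68, 6.59, 15.9 and 5.47 in GFP+ libraries, against 27.7, 27.4, 28.6 and 28.3 in GFP- libraries (-1.75 ± 0.53, adjusted p = 0.0244), a call that ended without any 1 of ES17, ES19, ES23, ES18, ES20, ES22 and ES24 (adjusted p between 0.0508 and 0.0704). Lmx1b, another marker of the glutamatergic lineage, had 127, 131, 188 and 163 in GFP+ and 255, 113, 176 and 257 in GFP- libraries, which overlapped, with a difference of -0.34 ± 0.23 (adjusted p = 0.371). It was called after centring on pan-neuronal genes, at -0.88 (adjusted p = 0.0161). Among those that rose, Pou4f1, a POU factor, had 159, 202, 143 and 191 in GFP+ and 27.7, 26.6, 35.5 and 53.8 in GFP- libraries, a rise of 2.29 ± 0.35 (adjusted p = 9.86e-05). Ebf3 rose by 1.14 ± 0.16 (adjusted p = 3.69e-05), Zic1 by 1.07 ± 0.14 (adjusted p = 1.45e-05) and Ebf1 by 0.75 ± 0.21 (adjusted p = 0.0142), while Ebf2 fell (-1.15 ± 0.22, adjusted p = 0.000869). The call of Ebf1 ended without any 1 of ES17 and ES20 (adjusted p between 0.0598 and 0.0697), with the 8 P7 libraries alone (adjusted p = 0.0725) and after centring, at 0.20 (adjusted p = 0.462).

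Guidance genes held the highest difference among well expressed genes, those with a mean log2 value over the 8 libraries at or above the median of tested genes. Robo3, the receptor that lets commissural axons cross the midline, had 485, 478, 478 and 691 in GFP+ and 29.6, 38.7, 14.8 and 38.7 in GFP- libraries. ES23 was the highest and the other 3 GFP+ libraries were nearly equal, all far above the GFP- libraries, and Robo3 rose by 4.16 ± 0.34 (adjusted p = 4.94e-08). Among 17 commissural and midline guidance genes, 4 rose and 4 fell, with a median of 0.03, or 3 and 2 without ES20 and 3 and 8 after centring. Slit1, a midline repellent, rose by 1.59 ± 0.18 (adjusted p = 3.99e-06), and its receptor gene Robo2 by 1.37 ± 0.21 (adjusted p = 0.00011), while Robo1 fell (-0.32 ± 0.11, adjusted p = 0.0404), a call that ended when any 1 P7 library was left out (adjusted p between 0.0541 and 0.128). Boc, a Sonic hedgehog coreceptor, had 38.6, 84.0, 51.5 and 78.1 in GFP+ and 242, 298, 180.4 and 323 in GFP- libraries and fell (-2.06 ± 0.23, adjusted p = 2.78e-06). Unc5b, a netrin receptor, fell (-1.61 ± 0.35, adjusted p = 0.00259), and its relative Unc5c rose by 0.50 ± 0.15 (adjusted p = 0.0242), a call that ended without any 1 of ES17, ES21, ES18, ES20 and ES24 (adjusted p between 0.0565 and 0.0716) and after centring, at -0.05 (adjusted p = 0.894). Dcc, the attractive netrin receptor, differed by -0.24 ± 0.16 (adjusted p = 0.347).

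Semaphorins, plexins and ephrins were split, with 9 of 34 that rose and 8 that fell and a median of 0.12. Without ES20, 5 rose and 7 fell, and after centring on pan-neuronal genes 2 rose and 13 fell. Sema3e rose by 1.69 ± 0.46 (adjusted p = 0.0133), a call that ended after centring (adjusted p = 0.0805), and the receptor gene Plxnc1 by 1.25 ± 0.23 (adjusted p = 0.000673), while Plxnb3 (-2.53 ± 0.38, adjusted p = 9.75e-05) and Sema5b (-1.76 ± 0.22, adjusted p = 9.2e-06) fell. Of 24 cadherins, 5 rose and 6 fell, with a median of 0.02, or 3 and 5 without ES20 and 3 and 11 after centring. Cdh8 had 4628, 2979, 3917 and 3396 in GFP+ and 1405, 881, 1218 and 1049 in GFP- libraries and rose by 1.71 ± 0.19 (adjusted p = 2.06e-06), and Pcdh8 by 1.95 ± 0.28 (adjusted p = 4.39e-05). Cdh20 fell (-1.27 ± 0.24, adjusted p = 0.000772), as did Cdh19 (-2.18 ± 0.35, adjusted p = 0.00016), which is known from Schwann cells and the oligodendrocyte lineage. Of 16 synaptic adhesion genes of the neurexin, neuroligin and cerebellin families, 2 rose and 1 fell, against 1 and 1 without ES20 and 1 and 10 after centring. Those called were Nrxn3, a presynaptic neurexin, which rose by 1.60 ± 0.31 (adjusted p = 0.0011), Clstn1, at 0.37 ± 0.13 (adjusted p = 0.047), and Cbln1, a secreted synaptic organizer, which fell (-1.45 ± 0.25, adjusted p = 0.000256). The call of Clstn1 ended without any 1 of ES17, ES19, ES23, ES18, ES20, ES22 and ES24 (adjusted p between 0.0629 and 0.164), and its sign turned to -0.18 after centring on pan-neuronal genes.

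The other genes of the 12 highest differences among well expressed genes were of matrix, signalling and membrane proteins. Col6a6, a chain of collagen VI, had 775, 639, 749 and 773 in GFP+ and 48.1, 56.5, 82.8 and 28.3 in GFP- libraries and rose by 3.84 ± 0.54 (adjusted p = 4.61e-05). Abi3bp, a matrix protein, had 1076, 835, 949 and 786 in GFP+ and 86.9, 74.2, 105.47 and 92.6 in GFP- libraries and rose by 3.33 ± 0.29 (adjusted p = 1.77e-07). Both genes were well apart between the populations in every library. Slc35d3, a member of the nucleotide sugar transporter family, rose by 3.51 ± 0.40 (adjusted p = 3.54e-06). Sfrp1, a secreted Wnt modulator, rose by 2.88 ± 0.46 (adjusted p = 0.000188), and Rasgrp1, which activates Ras, by 2.87 ± 0.30 (adjusted p = 1.28e-06).

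Ion channel and receptor families held single genes of large difference within modest family medians. Of 32 potassium channel genes, 11 rose and 3 fell, with a median of 0.46. Of 30 sodium, calcium, HCN and TRPC channel genes, 9 rose and 1 fell, also with a median of 0.46. Of 18 ionotropic glutamate receptor genes, 6 rose and 2 fell, with a median of 0.55. The pan-neuronal list itself had 5 of 14 that rose, none that fell and a median of 0.52. After centring on it, the same families had 5 that rose and 7 that fell, 2 and 4, and 5 and 4, in that order, so that more genes fell than rose in the potassium and in the sodium, calcium, HCN and TRPC families. Without ES20 the counts were 8 and 3, 6 and 1, and 5 and 2.

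Kcnt2, a sodium-activated potassium channel, had 3918, 2886, 3474 and 2888 in GFP+ and 765, 521, 606 and 669 in GFP- libraries and rose by 2.36 ± 0.21 (adjusted p = 2.18e-07). Kcnk2, a background channel opened by stretch, rose by 2.10 ± 0.26 (adjusted p = 1.03e-05), and Kcnc2, of fast-firing neurons, by 1.74 ± 0.22 (adjusted p = 1.03e-05). Kcna1, an axonal channel, fell (-0.78 ± 0.24, adjusted p = 0.0258), a call that ended without any 1 of ES17, ES19, ES23, ES18 and ES22 (adjusted p between 0.0537 and 0.0922), and Kcnj10, the potassium channel of glia, fell too (-1.59 ± 0.31, adjusted p = 0.000976). Trpc4, a cation channel, had 242, 195, 249 and 227 in GFP+ and 47.1, 12.1, 37.5 and 24.6 in GFP- libraries and rose by 3.02 ± 0.32 (adjusted p = 1.38e-06). The GFP- library ES20 was the lowest for Trpc4. Of the calcium channel subunit genes of the Cacna2d family, Cacna2d3 was higher by 1.54 ± 0.32 (adjusted p = 0.00213) and Cacna2d1 lower (-0.83 ± 0.15, adjusted p = 0.000543).

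Among glutamate receptors, Grin2c, an NMDA receptor subunit, had 276, 251, 273 and 284 in GFP+ and 24.0, 52.4, 24.6 and 34.0 in GFP- libraries and rose by 3.04 ± 0.30 (adjusted p = 5.86e-07). Grik1, a kainate receptor subunit, had 3239.9, 2089.9, 2758 and 2295 in GFP+ and 611, 503, 654 and 697 in GFP- libraries and rose by 2.06 ± 0.19 (adjusted p = 3.07e-07). Both were separated in every library. Grin2d rose by 1.63 ± 0.25 (adjusted p = 9.66e-05), Gria1 by 1.33 ± 0.17 (adjusted p = 9.22e-06) and Grik3 by 1.20 ± 0.19 (adjusted p = 0.000103), while the subunit genes Grin3a (-0.87 ± 0.17, adjusted p = 0.00091) and Grid1 (-0.83 ± 0.20, adjusted p = 0.00473) fell. Of 16 GABA-A and glycine receptor genes, 2 rose and 1 fell, with a median of 0.14. Without ES20 the counts were 1 and 0, and after centring 0 and 6. Of all tested genes 17.2% were called, 7.06% higher and 10.1% lower. Gabrg1 rose by 1.03 ± 0.19 (adjusted p = 0.000496) and Glra2, the glycine receptor subunit of immature neurons, by 1.08 ± 0.35 (adjusted p = 0.0342), while Gabra4 fell (-0.86 ± 0.25, adjusted p = 0.0175). The call of Glra2 ended without any 1 of ES17, ES19, ES21, ES23, ES18, ES20 and ES22 (adjusted p between 0.0523 and 0.109), and that of Gabra4 without any 1 of ES23, ES18, ES20 and ES22 (adjusted p between 0.0508 and 0.0653). After centring Gabrg1 was at 0.49 (adjusted p = 0.166) and Glra2 at 0.54 (adjusted p = 0.122), which ended both calls.

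Chloride transporters set the sign of GABA currents early in life. Slc12a5 (KCC2), which extrudes chloride from mature neurons, had 2433, 2331, 2581 and 2488 in GFP+ and 1654, 1385, 1597 and 1668 in GFP- libraries. The values did not overlap, and the rise of 0.64 ± 0.22 (adjusted p = 0.046) ended when any 1 P7 library was left out (adjusted p between 0.0685 and 0.125) and after centring, at 0.10 (adjusted p = 0.543). Slc12a2 (NKCC1), which loads chloride and is also made by glia, had 512, 631, 550.3 and 498 in GFP+ and 987, 1308, 1064 and 1099 in GFP- libraries and fell (-1.02 ± 0.26, adjusted p = 0.00863). ES20, the library with the highest glial levels, was the highest for Slc12a2. Of 11 genes of this family, 3 rose and 3 fell, or 1 and 3 without ES20 and 0 and 5 after centring. The lowest was Slc12a4, at -2.36 (adjusted p = 4.42e-05), or -2.90 (adjusted p = 0.000125) after centring. Oxsr1, a kinase of these transporters, rose by 0.44 ± 0.12 (adjusted p = 0.0112), and its sign turned to -0.11 after centring.

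Receptors for descending transmitters and for peptides followed, with 6 of 28 monoamine and acetylcholine receptor genes that rose, 2 that fell and a median of 0.34. Without ES20 4 rose and 1 fell, and after centring 6 rose and 5 fell. Adra2b, an alpha-2 adrenergic receptor, had 90.9, 93.8, 99.3 and 125 in GFP+ and 20.3, 0.807, 12.8 and 15.1 in GFP- libraries and rose by 3.41 ± 0.61 (adjusted p = 0.000468). The GFP- value of ES20 was that of a single read. Adra2c rose by 1.76 ± 0.48 (adjusted p = 0.0133), a call that ended without ES20 (adjusted p = 0.0589). Adra1a, Htr1a, Htr1d and Htr2c, adrenergic and serotonin receptor genes, rose by 1.57, 1.37, 1.56 and 1.58 (adjusted p = 8.07e-06, adjusted p = 0.00163, adjusted p = 0.0107 and adjusted p = 0.0331). The call of Htr2c ended without any 1 of ES17, ES19, ES21, ES23, ES18, ES20 and ES24 (adjusted p between 0.0516 and 0.0906). Chrm1, a muscarinic receptor, fell (-1.64 ± 0.45, adjusted p = 0.0143), a call that ended without ES18 (adjusted p = 0.0543).

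Of 25 neuropeptide receptor genes, 8 rose and 2 fell, with a median of 0.46, or 7 and 4 without ES20 and 6 and 5 after centring. Hcrtr2, an orexin receptor, had 234, 204, 240.2 and 194 in GFP+ and 36.0, 46.8, 45.3 and 42.5 in GFP- libraries and rose by 2.33 ± 0.47 (adjusted p = 0.00156). Crhr1, the corticotropin-releasing hormone receptor, rose by 2.26 ± 0.33 (adjusted p = 6.54e-05), Oxtr, the oxytocin receptor, by 2.06 ± 0.24 (adjusted p = 3.5e-06) and Sstr1, a somatostatin receptor, by 2.06 ± 0.29 (adjusted p = 3.56e-05). Galr1, a galanin receptor, had 37.5, 28.8, 17.2 and 35.9 in GFP+ and 85.0, 39.5, 46.3 and 72.7 in GFP- libraries, just apart. It fell (-0.996 ± 0.317, adjusted p = 0.0325), and the call ended without any 1 of ES19, ES21, ES18 and ES24 (adjusted p between 0.0637 and 0.126). Ntsr2, a neurotensin receptor known from astrocytes, fell (-2.06 ± 0.29, adjusted p = 4.4e-05).

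Genes that make and store peptides rose, with 8 of 13 granule and prohormone processing genes higher, 0 lower and a median of 0.85. The counts were the same without ES20, and after centring 3 rose and 1 fell. Scg2, a granin of dense-core vesicles, had 1966, 2432, 1566 and 1899 in GFP+ and 338, 329, 304 and 332 in GFP- libraries. The GFP- values were nearly equal, all GFP+ values were above them, and the difference was 2.57 ± 0.16 (adjusted p = 4.33e-10). Pam, the enzyme that amidates peptides, rose by 1.18 ± 0.15 (adjusted p = 1.34e-05), Chgb, another granin, by 1.11 ± 0.18 (adjusted p = 0.000174) and Pcsk1, a prohormone convertase, by 0.76 ± 0.18 (adjusted p = 0.0051), a call that ended after centring, at 0.22 (adjusted p = 0.436). Pcsk2, the convertase known to cut dynorphins out of prodynorphin, differed by -0.39 ± 0.21 (adjusted p = 0.226). Of 24 genes of vesicle release, 9 rose and 0 fell, with a median of 0.43, against 5 and 0 without ES20 and 4 and 2 after centring. Unc13c, a priming factor, rose by 1.76 ± 0.28 (adjusted p = 0.000148), Sv2c, a vesicle protein, by 1.33 ± 0.35 (adjusted p = 0.0114) and Syt1, the calcium sensor of release, by 1.07 ± 0.26 (adjusted p = 0.00578).

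**Figure D4:**
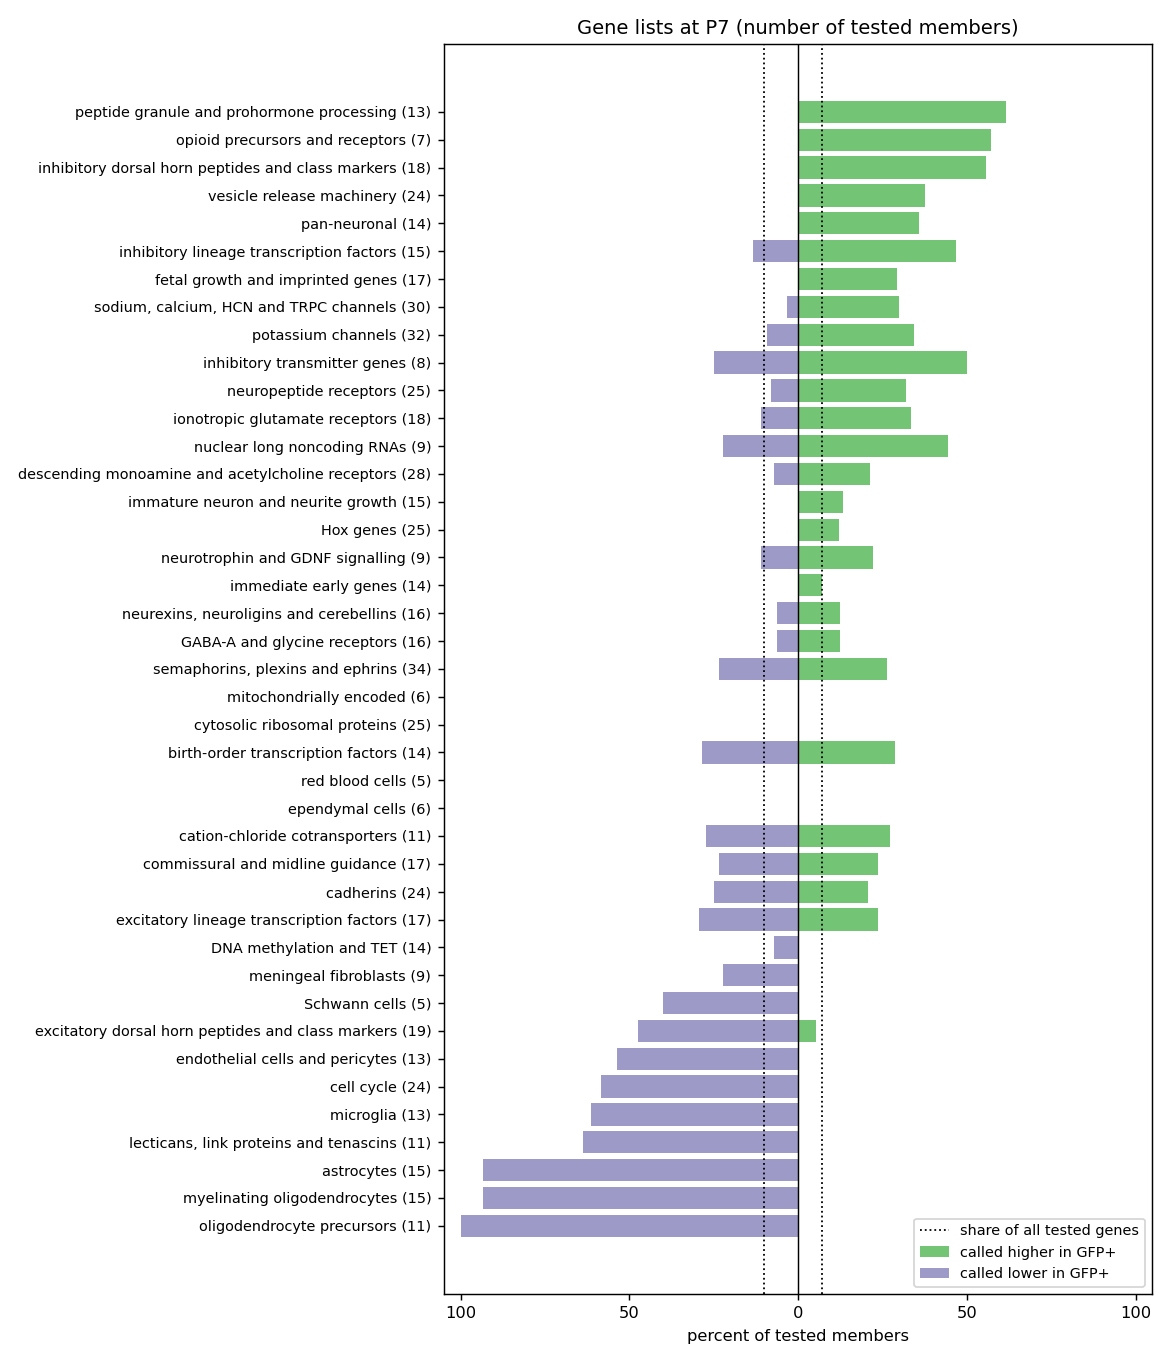
Percent of the tested members of each gene list that rose (green, to the right) or fell (violet, to the left) in GFP+ nuclei at P7, with the number of tested members in brackets. Lists of at least 5 tested members are ordered by the share that rose minus the share that fell, and dotted lines mark the shares of all tested genes, 7.06% that rose and 10.1% that fell.

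Genes of dividing cells fell. Of 24 cell cycle genes, 14 fell and 0 rose, with a median of -1.58, and without ES20 8 fell. In 20 of the 24 all GFP+ values were below all GFP- values, against 15.7% of all tested genes. Mki67, the proliferation marker, had 209, 123, 175 and 148 in GFP+ and 984, 1874, 1017 and 936 in GFP- libraries and fell (-2.83 ± 0.40, adjusted p = 4.4e-05). ES20 was well above the other GFP- libraries, and the highest GFP+ library stayed far below the lowest GFP- one. Top2a, a topoisomerase of dividing cells, had 81.8, 27.2, 56.4 and 43.7 in GFP+ and 269.9, 440.4, 310.5 and 307 in GFP- libraries and fell (-2.73 ± 0.53, adjusted p = 0.00105). Cdk1, the mitotic kinase, fell (-2.79 ± 0.81, adjusted p = 0.0201), a call that ended without any 1 of ES19 and ES20 (adjusted p between 0.0538 and 0.0586). Uhrf1, which brings DNA methylation to newly copied DNA, fell (-2.06 ± 0.56, adjusted p = 0.0121) and was the 1 of 14 DNA methylation genes that limma called with all libraries. With the 8 P7 libraries alone, and by edgeR, 1 of the 14 rose and 1 fell. Of all tested genes, 17.2% were called by limma with all libraries. These genes moved with the oligodendrocyte precursor sums, 356 to 553 in GFP+ and 2582 to 4140 in GFP- libraries, and the part of precursors in their fall was not tested.

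Glial genes fell nearly throughout. All 11 oligodendrocyte precursor genes fell, with a median of -2.63, as did 14 of 15 genes of myelinating oligodendrocytes (-1.99) and 14 of 15 astrocyte genes (-1.69). The exceptions were Ermn (-0.25 ± 0.35 (adjusted p = 0.694)) and Sox9 (-0.89 ± 0.36 (adjusted p = 0.0929)). Pdgfra, the growth factor receptor of the precursors, had 139, 109, 207 and 155 in GFP+ and 1220.1, 1699.6, 958 and 1315 in GFP- libraries, the lowest difference of well expressed genes (-3.09 ± 0.31, adjusted p = 1.05e-06). Every GFP+ library was far below every GFP- library, with a ratio of means of 0.117. Cspg4, the NG2 proteoglycan, fell (-2.92 ± 0.45, adjusted p = 0.000112), as did the lineage factors Sox10 (-2.68, adjusted p = 3.68e-05) and Olig2 (-2.64, adjusted p = 5.36e-05), the sialidase gene Neu4 (-2.64, adjusted p = 0.000547) and Matn4, a matrilin (-2.96, adjusted p = 7.48e-06). Mbp, myelin basic protein, had 4058, 3682, 4599 and 3483 in GFP+ and 12210.3, 15963, 15274 and 12722 in GFP- libraries and fell (-1.83 ± 0.31, adjusted p = 0.000354). Slc1a2, the glutamate transporter of astrocytes, had 1652, 1782, 1739 and 1553 in GFP+ and 5020.0, 6052, 4519 and 5071 in GFP- libraries and fell (-1.61 ± 0.19, adjusted p = 7.07e-06). Neither gene overlapped, and the ratios of GFP+ to GFP- means were 0.282 for Mbp and 0.326 for Slc1a2.

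Of 13 microglial genes 8 fell and 0 rose, with a median of -2.54, or 6 without ES20. Siglech had 7.95, 5.76, 12.3 and 4.69 in GFP+ and 109, 194, 115 and 127 in GFP- libraries and fell (-4.02 ± 0.59, adjusted p = 7.17e-05), and the growth factor receptor gene Csf1r fell too (-2.79 ± 0.46, adjusted p = 0.000236). Of 13 endothelial and pericyte genes 7 fell, with a median of -1.46, led by Atp13a5 (-2.97 ± 0.35, adjusted p = 4.62e-06), a transporter gene known from brain pericytes. Cldn5, an endothelial tight junction protein, had 3.41, 7.41, 8.58 and 9.37 in GFP+ and 30.5, 41.1, 24.6 and 46.3 in GFP- libraries, without overlap, and missed the threshold (-2.19 ± 0.88, adjusted p = 0.0926). With the 8 P7 libraries alone its adjusted p was 0.000206, and it was called after centring, at -2.74 (adjusted p = 0.0358). Of 9 meningeal fibroblast genes 2 fell, or 5 after centring, where 10.1% of all tested genes fell. Of 5 Schwann cell genes 2 fell, Pmp22 (-2.60 ± 0.64, adjusted p = 0.00704) and Cdh19. For Pmp22 the GFP- values were 338, 67.0, 567 and 139.8, lowest in ES20, against 43.2, 15.6, 57.6 and 30.5 in GFP+ libraries, lowest in ES19. Lecticans and other matrix genes had 7 of 11 that fell and 0 that rose, with a median of -1.51. Among them Bcan, brevican, had 289, 589, 499 and 506 in GFP+ and 1722, 3009, 1784 and 2570.4 in GFP- libraries (-2.28 ± 0.25, adjusted p = 2.12e-06), and Tnc, tenascin C, fell as well (-2.45 ± 0.53, adjusted p = 0.00275). By limma no ependymal, motor neuron or red blood cell gene was called, of 6, 3 and 5, while 1, 2 and 0 had an unadjusted p under 0.05. By edgeR on the reads of the P7 libraries 1 ependymal and 1 motor neuron gene were called. Calca, the CGRP gene of sensory and motor neurons, rose by 1.28 ± 0.39 (adjusted p = 0.027), a call that ended without any 1 of ES19, ES23, ES20, ES22 and ES24 (adjusted p between 0.0566 and 0.075) and after centring, at 0.73 (adjusted p = 0.18).

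Transcription factors tied to birth order in the mouse spinal cord were divided, with 4 of 14 that rose and 4 that fell, also without ES20. The others were not called. Of factors known from later-born local neurons, Neurod2 had 178, 162, 159 and 162 in GFP+ and 13.9, 25.01, 12.8 and 17.0 in GFP- libraries and rose by 3.24 ± 0.44 (adjusted p = 2.4e-05), Neurod6 rose by 2.09 ± 0.53 (adjusted p = 0.00853), Prox1 by 1.82 ± 0.29 (adjusted p = 0.000194) and Nfib by 0.70 ± 0.12 (adjusted p = 0.000246), and Nfia, a relative of Nfib that astrocytes also make, fell (-1.13 ± 0.19, adjusted p = 0.000263). The call of Nfib ended after centring, at 0.15 (adjusted p = 0.675). Onecut2, a factor known from earlier-born neurons, had 217, 191, 284 and 165 in GFP+ and 730.2, 808, 913 and 739.7 in GFP- libraries and fell (-1.92 ± 0.25, adjusted p = 1.5e-05). Zfhx3, of earlier-born neurons too, fell (-0.66 ± 0.15, adjusted p = 0.00421), as did Bnc2 (-2.19 ± 0.31, adjusted p = 4.54e-05). After centring on pan-neuronal genes, 3 rose and 6 fell.

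Fetal growth and imprinted genes rose in 5 of 17 cases, with a median of 0.60, and in 1 case without ES20. After centring 1 rose and 1 fell. Hmga2, a chromatin protein of fetal tissue, had 794, 575, 759 and 662 in GFP+ and 168, 111, 177 and 141 in GFP- libraries and rose by 2.23 ± 0.17 (adjusted p = 1.04e-08). All GFP+ values lay far above the GFP- values, with a ratio of means of 4.67. The noncoding RNAs Meg3, Rian and Mirg of the imprinted Dlk1 domain rose by 0.85 ± 0.29, 0.92 ± 0.26 and 0.85 ± 0.26 (adjusted p = 0.0483, adjusted p = 0.0168 and adjusted p = 0.027). The call of Meg3 ended when any 1 P7 library was left out (adjusted p between 0.0637 and 0.134), that of Rian without ES20 (adjusted p = 0.0625) and that of Mirg without any 1 of ES19, ES23, ES18 and ES20 (adjusted p between 0.0523 and 0.0853). After centring Meg3 and Mirg were not called (adjusted p = 0.118 and adjusted p = 0.121). Neat1, of nuclear paraspeckles, had 909.9, 869, 1179 and 962 in GFP+ and 2416, 2336, 2409 and 1673 in GFP- libraries and fell (-1.17 ± 0.25, adjusted p = 0.00266). Malat1, of nuclear speckles, fell (-0.60 ± 0.18, adjusted p = 0.0244), a call that ended without any 1 of ES17, ES20 and ES24 (adjusted p between 0.0564 and 0.101). A list of 9 nuclear long noncoding RNAs had mean log2 levels of 14.6, 14.6, 13.8 and 13.5 in GFP+ libraries. In GFP- libraries the levels were 14.5, 14.3, 13.6 and 13.4, so that the populations overlapped. The levels split across both populations, with ES17, ES19, ES18 and ES20 at 14.3 to 14.6 and ES21, ES23, ES22 and ES24 at 13.4 to 13.8. The source of this split was not tested. Of the 9 genes 4 rose and 2 fell, or 0 and 1 without ES20 and 1 and 3 after centring. Of 15 genes of immature neurons 2 rose, where 7.06% of all tested genes rose. They were Dpysl5 (0.96 ± 0.17, adjusted p = 0.000471) and Gap43, a growth cone protein (0.83 ± 0.23, adjusted p = 0.0151). After centring 0 genes of this list rose and 2 fell. The call of Gap43 ended without ES22 (adjusted p = 0.0612), and neither gene was called after centring (Gap43 0.28 (adjusted p = 0.301), Dpysl5 0.41 (adjusted p = 0.0608)).

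Of 25 Hox genes, which mark position along the body, 3 rose and 0 fell, with a median of 0.11, where 7.06% of all tested genes rose. Without ES20 the counts were 2 and 0, and after centring 0 and 6. Hoxb8 rose by 0.93 ± 0.18 (adjusted p = 0.000838), Hoxb9 by 0.85 ± 0.22 (adjusted p = 0.0101) and Hoxd3 by 0.46 ± 0.16 (adjusted p = 0.0468). The call of Hoxd3 ended when any 1 P7 library was left out (adjusted p between 0.0614 and 0.108), and after centring none of the 3 was called, at 0.39 (adjusted p = 0.0986) for Hoxb8, 0.30 (adjusted p = 0.271) for Hoxb9 and -0.09 (adjusted p = 0.646) for Hoxd3. Of 14 immediate early genes Npas4, which neuronal activity induces, had 126, 129, 146 and 130.4 in GFP+ and 54.5, 54.0, 83.8 and 82.2 in GFP- libraries and rose by 0.97 ± 0.19 (adjusted p = 0.00119). By limma no other was called, among them Fos at 0.06 ± 0.66. After centring the call of Npas4 ended, at 0.43 (adjusted p = 0.168), and 1 gene of the list fell. Of 9 neurotrophin and GDNF family genes, Ret and Gfra4 rose, the second by 0.80 ± 0.27 (adjusted p = 0.0451), and Ntrk3 fell (-0.86 ± 0.17, adjusted p = 0.000948). The call of Gfra4 ended without any 1 of ES19, ES21, ES23, ES18, ES20, ES22 and ES24 (adjusted p between 0.0504 and 0.151) and after centring, at 0.25 (adjusted p = 0.421). Without ES20 1 of these genes rose and 1 fell, and after centring 1 rose and 4 fell. By limma none of 25 cytosolic ribosomal protein genes was called (median -0.07), with 2 at an unadjusted p under 0.05 and 1 called by edgeR. None of 6 mitochondrially encoded genes was called or had such a p (median 0.47), and edgeR called 0. The mean log2 level of the mitochondrial genes was lowest in the GFP+ library ES19 (6.87) and the GFP- library ES20 (7.28), against 8.07 to 9.92 in the others.

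To find where the populations differed at P7 in another way than later, the P7 difference was tested against the mean of the differences at P21 and P80 in the same fit. Of 18614 genes, 185 (0.994%) passed, 138 (0.741%) with a P7 difference above the later ones and 47 (0.252%) with 1 below. Among well expressed genes, the 5 highest and 4 of the 5 lowest are given here with their difference at each age. Spag5, a mitotic spindle gene, had 51.1, 54.3, 72.3 and 45.3 in GFP+ and 225, 394, 241 and 301 in GFP- libraries at P7, a difference of -2.34 ± 0.19, while it differed by 0.08 ± 0.22 at P21 and 0.33 ± 0.19 at P80. The P7 difference minus the later ones was -2.55 ± 0.24 (adjusted p = 6.85e-06). Atad2, a chromatin gene of dividing cells, differed by -2.04 ± 0.27 at P7, -0.71 ± 0.31 at P21 and -0.03 ± 0.27 at P80. Mybl1, a transcription factor, differed by -1.82 ± 0.21 at P7, -0.75 ± 0.24 at P21 and -0.17 ± 0.21 at P80. Col24a1, a collagen, was higher in GFP+ nuclei at each age, by 1.40 ± 0.30 at P7, 3.80 ± 0.35 at P21 and 3.08 ± 0.30 at P80. Hmga2 was likewise higher at each age, and its P7 difference minus the later ones was -1.10 ± 0.21 (adjusted p = 0.0186), with 3.44 ± 0.19 at P21 and 3.23 ± 0.17 at P80.

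In the other direction, the 5 highest of the well expressed genes were lower in GFP+ nuclei at P21 and P80. At P7 these 5 were less so, or were not called. Cxcl12, a chemokine, had 104.51, 79.0, 80.9 and 104.66 in GFP+ and 136, 100.03, 157 and 120.0 in GFP- libraries at P7, overlapping, a difference of -0.46 ± 0.42 against -3.48 ± 0.48 at P21 and -2.32 ± 0.42 at P80. Car2, carbonic anhydrase of oligodendrocytes, differed by -0.57 ± 0.35 at P7, -2.14 ± 0.40 at P21 and -3.60 ± 0.35 at P80. Gpr37, a receptor of myelinating cells, differed by -1.31 ± 0.36, -3.05 ± 0.41 and -4.06 ± 0.36, and Pla2g4a, a phospholipase, by -2.16 ± 0.34, -3.79 ± 0.39 and -4.93 ± 0.34. Pde8a, a phosphodiesterase, differed by -0.15 ± 0.29, -1.84 ± 0.33 and -2.89 ± 0.29. Grin2c was called too, at 1.70 ± 0.38 (adjusted p = 0.0353), with a rise of 3.04 ± 0.30 at P7, 1.22 ± 0.35 at P21 and 1.45 ± 0.30 at P80. For the peptides and receptors that led the P7 comparison this test was not passed. It gave 0.85 ± 0.77 (adjusted p = 0.675) for Pdyn, 0.32 ± 0.58 (adjusted p = 0.85) for Gal, -0.42 ± 0.28 (adjusted p = 0.556) for Sstr2 and -0.35 ± 0.42 (adjusted p = 0.763) for Robo3, which does not show that their differences were equal at all ages. The number of genes that passed depended on single libraries: without 1 library it lay between 26 (without ES24) and 474 (without ES16), and it stayed nearest to 185 without ES7 (140) and ES12 (134).

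**Figure D5:**
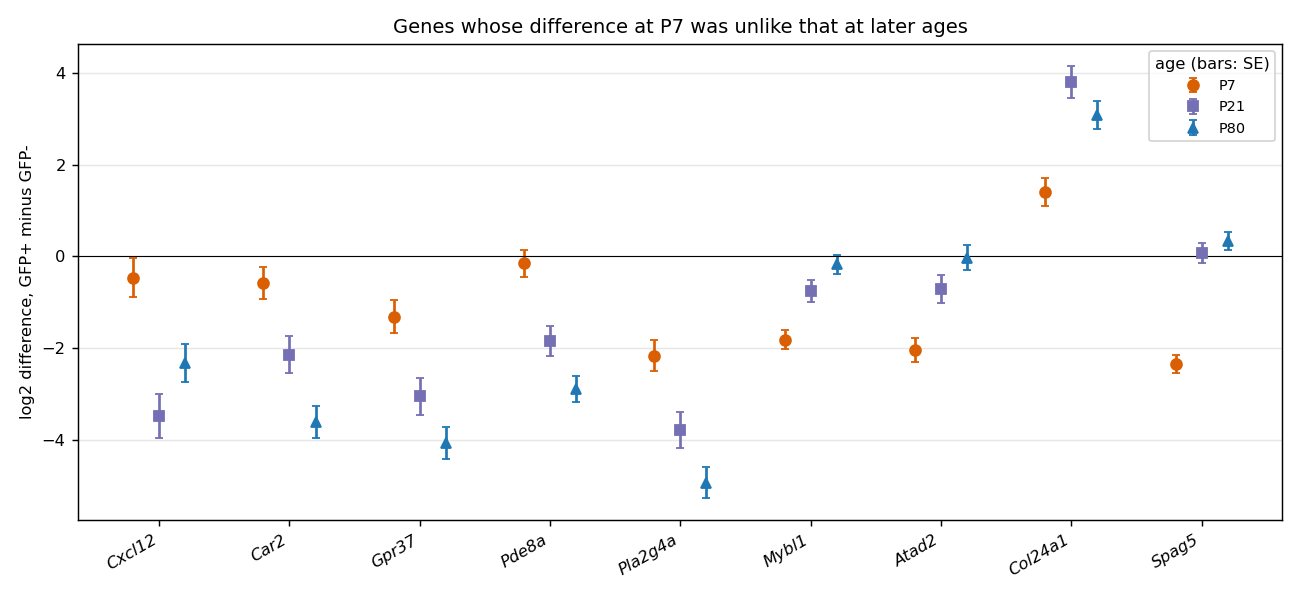
Difference between GFP+ and GFP- nuclei (vertical axis, log2 scale, GFP+ minus GFP-) at P7, P21 and P80 for 9 well expressed genes, the 5 with the highest and 4 of the 5 with the lowest value of the P7 difference against the later ones, with points for the fitted difference and bars for its SE. Cxcl12 to Pla2g4a lie nearer to 0 at P7, and Spag5 lies at -2.34 at P7 and near 0 later.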

How the data were processed

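Per the labels' protocols, dorsal horns of both sides were homogenized, nuclei were sorted by flow cytometry, and libraries were made with the NuGEN SoLo kit and 15 cycles of amplification. Tools listed in the submitters' processing notes are STAR, HTSeq, DESeq2, cutadapt and Trim Galore, and the sources used here give no version, setting or genome build. The deposited values were treated as a signal: in each P7 library all were whole multiples of 1 step (tolerance 0.01), which is what read counts divided by a size factor of the authors give. Columns were tied to an age and population by the authors' sheets, not to an animal. The deposited log2 fold changes, p-values and adjusted p-values of the authors were used only for the counts of their called genes.

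The filter kept the 18614 of 21363 genes that reached 10 in 3 or more of 22 libraries, and log2(value + 1) was fitted with limma 3.58.1 (R 4.3.3, trend and robust options) as 6 group means over all 22 libraries. Benjamini-Hochberg adjusted p under 0.05 was the threshold. Whether the labels' animals are independent litters is not stated. The members and gene lists (44 lists, 697 genes) were chosen with earlier results of these data known. The text names 46 chosen genes, the 12 highest and 12 lowest called genes of at least median expression whose libraries did not overlap, the 2 highest and 2 lowest called members of each list, and the 5 highest and 5 lowest of the P7 difference against later ages. Of the genes this rule picks, 3 are not reported here. Other list members named in the text were picked after their values were seen. Alternatives were other pseudocounts, filters, scalings, fits and tools (edgeR 4.0.16, DESeq2 1.42.0 on whole reads) and leaving out each library. Scripts were tested on simulated data.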

Additional observations from a re-analysis of the deposited data

Results flagged for a closer look

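The genes picked by the naming rule made 304 groups of 4 libraries. Dixon's test was run on these except where the highest value was under 10, so on fewer than 304. Chance alone sets about 1 in 20 tested groups apart. In 15 groups 1 library lay apart from the other 3 of its population. In GFP+ libraries these were Robo3 in ES23 (691, others 478 to 485), Gad1 in ES23 (1272, others 1448 to 1475), Mafa in ES21 (15.9, others 5.47 to 6.59), Slc7a10 in ES17 (65.9, others 138 to 145) and Neurod2 in ES17 (178, others 159 to 162). In the GFP- library ES20 they were Mki67 (1874, others 936 to 1017), Kcnj10 (1034, others 751 to 792), Sema3e (100.03, others 66.0 to 71.8) and Sv2c (214, others 289 to 297). In ES18 they were Slc17a6 (715, others 542 to 566), Tac1 (168, others 95.6 to 106) and Unc5b (108, others 133 to 134). In ES24 they were Oprk1 (159, others 183 to 188), Gabra4 (115, others 168 to 178) and Neat1 (1673, others 2336 to 2416).

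For 14 of the genes picked by the naming rule, the P7 difference between GFP+ and GFP- nuclei departed from the mean of those at P21 and P80. The test was limma's test of that contrast. The value, on the log2 scale, was above 0 for Cxcl12 (2.44, adjusted p = 0.034), Car2 (2.30, adjusted p = 0.0186), Gpr37 (2.25, adjusted p = 0.0224), Pde8a (2.21, adjusted p = 0.00778), Pla2g4a (2.19, adjusted p = 0.0186), Neat1 (2.05, adjusted p = 0.00605), Cdh19 (2.04, adjusted p = 0.0338), Tmem63a (1.88, adjusted p = 0.0373) and Grin2c (1.70, adjusted p = 0.0353). It was below 0 for Spag5 (-2.55, adjusted p = 6.85e-06), Col24a1 (-2.04, adjusted p = 0.0186), Atad2 (-1.67, adjusted p = 0.0243), Mybl1 (-1.35, adjusted p = 0.0186) and Hmga2 (-1.10, adjusted p = 0.0186).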

How the results depend on the processing

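The 8 P7 libraries fitted alone gave 5154 called genes (2300 higher and 2854 lower), edgeR on their whole reads gave 5184 (2392 and 2792) and DESeq2 5246 (2432 and 2814), against 3203 (1315 and 1888) with all 22 libraries. Centring on pan-neuronal genes moved the split to 275 higher and 4476 lower, of 4751, and the genes without overlap to 9337, against 5308. Other pseudocounts, filters, scalings and limma options gave 2972 to 3288 called genes, and TMM scaling split them into 1236 higher and 1959 lower. With 1 P7 library left out, 2248 to 2701 genes were called, 845 to 1106 higher and 1403 to 1632 lower, and 5923 to 6181 did not overlap. The genes whose P7 difference was unlike the later ones numbered 26 to 474 with 1 library left out and 203 with a pseudocount of 5, against 185; edgeR was not run for them.

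The genes picked by the naming rule that had a test (151, of which 137 were called) were compared over all fits. Other list members named in the text are left out of these counts, and several of them also turned or lost their call. Of the 137 called genes of the rule, 2 turned under centring, Clstn1 (-0.18) and Oxsr1 (-0.11), and 19 lost their call there. Of the genes of the rule that were not called, 3 turned under centring, Slc17a6 (-0.50), Oprm1 (-0.17) and Lbx1 (-0.52), and 5 were called. Tac1, Pvalb, Lbx1 and Slc17a6, all not called, also turned without 1 library. Without at least 1 P7 library 22 of the 137 called genes of the rule lost their call. TMM and upper-quartile scaling moved the median of all genes by -0.01 and 0.00. The counts of lists under these settings were chosen after seeing the data. No paired analysis was run because the columns carry no animal numbers. The tests therefore treated GFP+ and GFP- libraries of the same animal as independent. The authors' P7 sheet holds the same library values, so it gave no separate result. Depth limits the genes of a few reads, such as Pomc, Pvalb and Chat, and intervals there would cover counting error only.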
